A study of Mus musculus with 18 samples.

Results

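The 10 genes described here, Itgax, Clec7a, Cst7, Lgals3, Axl, Lpl, Spp1, Cd68, Trem2 and Tyrobp, are core genes of the state known as disease-associated microglia. They were taken by symbol from the 55269 named rows of the deposited table, and all 10 passed the filter on low values, which asked for at least 10 normalised reads in at least 6 of the 18 libraries. They were chosen with results of these same data in view: Itgax, Clec7a and Lgals3 had already stood among the largest increases after AAV-GFP, and Clec7a among the largest decreases after AAV-SIRT3. Their differences between groups are therefore a description, and no p-value is given for any of the 10.

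RNA was sequenced from the substantia nigra, the midbrain nucleus that holds the nigrostriatal dopamine neurons, of mice 3 months old. An intact group was labelled WT, with no virus named. The AAV-GFP group had received an adeno-associated virus (AAV, a gene delivery vector) labelled GFP, a green fluorescent protein used as a control cargo, and the AAV-SIRT3 group an AAV labelled SIRT3, a mitochondrial protein deacetylase. Tissue was taken 1 month after the virus, and each group had 6 libraries. The promoter, serotype and dose of the viruses, the species of the SIRT3 sequence, and the strain and sex of the mice are not given in the sources used here, nor is any sham surgery in the intact group. The intact and AAV-GFP groups thus differ in virus and in whatever surgery delivered it, which cannot be told apart here. Nothing states that the libraries of a group came from separate animals, so their spread may be partly technical.

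Microglia are the resident macrophages of the brain. In the disease-associated state, described first around amyloid plaques, they lower homeostatic genes and raise a set of phagocytic, lysosomal and lipid-handling genes. Full entry into that state depends on the lipid receptor TREM2 and its signalling adaptor TYROBP (DAP12). CLEC7A (dectin-1) is a beta-glucan receptor that signals through the kinase SYK, ITGAX is the integrin CD11c, and AXL is a receptor tyrosine kinase that takes up apoptotic cells. CST7 (cystatin F) inhibits lysosomal cathepsins and CD68 is a lysosomal membrane glycoprotein. LGALS3 (galectin-3) is a secreted and cytosolic sugar-binding protein, LPL hydrolyses triglycerides, and SPP1 (osteopontin) is a secreted phosphoprotein. Several of the 10 are not restricted to microglia in this tissue: Lpl, Spp1 and Axl are also expressed by neurons or by other glia.

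The upstream sequences of 4 members are shown because these genes include the 3 with the largest fitted differences between AAV-GFP and intact, Cst7, Itgax and Clec7a, and Cd68, which held more than 1 match to the motif searched. Each line gives the 250 bases before the RefSeq start site on the gene's own strand, 5′ to 3′, from RefSeq on GRCm38.p6, the assembly of the mm10 build. The windows are chr7:128129300-128129549 (Itgax, + strand), chr6:129472780-129473029 (Clec7a, - strand), chr2:150570165-150570414 (Cst7, + strand) and chr11:69666171-69666420 (Cd68, - strand). Capitals mark matches to TGANTCA, the AP-1 element, which reads the same on both strands.
Itgax: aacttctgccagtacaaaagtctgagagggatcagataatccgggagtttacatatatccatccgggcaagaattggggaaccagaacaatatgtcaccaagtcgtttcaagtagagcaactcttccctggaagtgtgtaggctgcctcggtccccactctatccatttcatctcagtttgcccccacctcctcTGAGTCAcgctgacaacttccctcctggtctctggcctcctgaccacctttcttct
Clec7a: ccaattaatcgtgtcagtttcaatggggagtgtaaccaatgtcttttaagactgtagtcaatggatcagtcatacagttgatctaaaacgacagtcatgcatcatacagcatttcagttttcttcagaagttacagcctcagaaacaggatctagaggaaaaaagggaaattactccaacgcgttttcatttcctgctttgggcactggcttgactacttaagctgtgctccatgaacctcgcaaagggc
Cst7: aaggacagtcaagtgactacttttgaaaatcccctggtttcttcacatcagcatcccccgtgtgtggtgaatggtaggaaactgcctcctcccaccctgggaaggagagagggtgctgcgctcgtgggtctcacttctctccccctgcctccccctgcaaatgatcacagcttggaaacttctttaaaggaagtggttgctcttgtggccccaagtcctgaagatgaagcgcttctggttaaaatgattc
Cd68: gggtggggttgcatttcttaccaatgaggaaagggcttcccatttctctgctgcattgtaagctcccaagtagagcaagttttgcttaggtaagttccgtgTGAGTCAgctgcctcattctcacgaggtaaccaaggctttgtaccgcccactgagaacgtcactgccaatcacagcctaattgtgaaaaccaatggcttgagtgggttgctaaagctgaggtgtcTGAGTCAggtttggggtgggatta
RefSeq held such windows for 8 of the 10 members, with more than 1 for Clec7a and for Spp1, and Lpl and Tyrobp had none. Matches below are counted by gene for the members and by window for the shares of all windows. TGANTCA was found in 3 of the 8, at position -56 in Itgax, at -149 and -24 in Cd68 and at -9 in Trem2, counted from the start site, and in 6.75% of all 32851 windows of that length. The PU.1 element GAGGAAGT, searched on both strands, was found in 1 window of Spp1 at -113 and in 2.44% of all windows. The other Spp1 window and the Lgals3 window lay wholly inside the annotated gene. The E-box CACGTG, the same on both strands, was found in none of the 8 and in 6.02% of all windows. No match overlapped another. These are letter matches in short windows and describe no binding.

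Libraries held between 47182529 and 64728587 reads assigned to genes. Values below are normalised reads: read counts that the authors divided by a size factor for each library, so they compare a gene between libraries but not genes of different length. Dopaminergic markers were present in every library, their summed level running from 35500 to 55030 normalised reads. Sirt3 itself, counted against the mouse gene, stood at 1937 ± 79.4 (SD, n = 6) after AAV-SIRT3, 1775 ± 92.4 after AAV-GFP and 1824 ± 66.3 in intact tissue, a difference between the viruses of 0.13 ± 0.042 (log2, SE) that did not pass the threshold in limma (adjusted p = 0.184). That value is no check of the labels, because reads from a SIRT3 sequence of another species need not be counted there.

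Some libraries stood apart for these genes. AAV-GFP replicate 6 was the lowest of its group for 8 of the 10 members, while in the AAV-SIRT3 group replicate 6 was the highest for 8 of the 10. AAV-SIRT3 replicate 6 also had the highest summed interferon response genes, 9510 normalised reads against a group median of 3549. For 5 members the highest AAV-GFP value was that of replicate 5. It also carried genes of the choroid plexus, the secretory epithelium of the ventricles, summing to 41640 normalised reads against at most 1513 in the other AAV-GFP libraries, as did intact replicate 2 with 47300 against at most 5389 in the other intact libraries. The part of that tissue in the members' values was not tested.

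Compared with intact tissue, AAV-GFP tissue had higher levels of all 10 members by their fitted values, and 8 passed the threshold used across all 19442 tested genes (limma, adjusted p under 0.05): every member except Axl and Spp1. Of all tested genes, 0.823% passed in that direction and 1.84% in either. The fitted differences ran from 0.03 to 4.52 on the log2 scale with a median of 0.65, against a median of 0.0007 over all tested genes. In 4 members, Itgax, Clec7a, Cst7 and Lgals3, each AAV-GFP library was above each intact library, which held in that direction for 0.874% of tested genes. The members were chosen partly on this contrast, so nothing is read from these shares. Log2 differences are on the scale of log2(value + 1), where the added 1 shrinks log ratios of low values. They also average logs over libraries, so they can lie above or below the ratio of group means. The fitted fold and that ratio were 22.9 and 19.1 for Cst7 and 6.97 and 6.85 for Itgax. They were 6.01 and 6.49 for Clec7a and 3.19 and 3.45 for Lgals3. In bulk tissue, more cells of a type and more RNA per cell cannot be told apart.

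**Figure D1:**
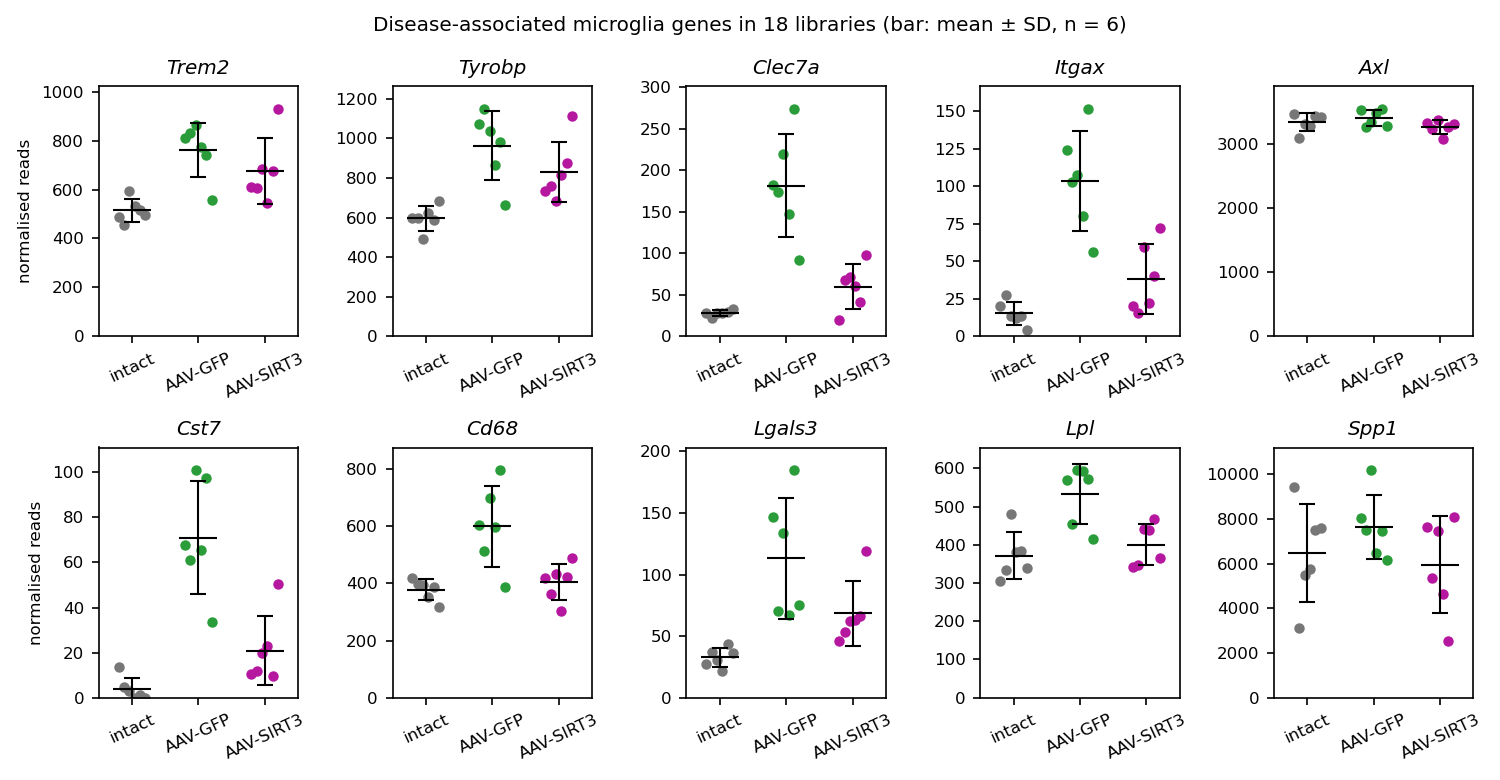
Normalised reads of each of the 10 genes (y axis, from 0, a scale for each gene) in the 6 libraries of each group (x axis); points are libraries, bars the mean ± SD. Clec7a, Itgax, Cst7 and Lgals3 have every AAV-GFP library above every intact library, and Axl shows 3 groups of nearly equal level.

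Among the receptors, Clec7a (chr6:129461591-129472779, typed as a polymorphic pseudogene in GENCODE M21) lay between 21.8 and 32.4 normalised reads in intact libraries, with a median of 28.2. In AAV-GFP libraries it lay between 91.3 and 274 with a median of 178, and in AAV-SIRT3 libraries between 19.1 and 97.9 with a median of 64.3. The intact group was tight, its highest library below the lowest AAV-GFP library, while the AAV-SIRT3 group spanned the gap and its replicate 1 was below all intact libraries. The means were 27.9 ± 3.49, 181 ± 62.3 and 59.6 ± 27.1 (SD, n = 6 each). Clec7a rose by 2.59 ± 0.295 (log2, SE) from intact to AAV-GFP. From AAV-GFP to AAV-SIRT3 it fell by 1.67 on the log2 scale with the same SE, and it was the single member past the threshold there.

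Itgax (chr7:128129547-128150657), known mainly from dendritic cells and activated microglia, lay between 4.17 and 27.2 normalised reads in intact libraries (median 13.7), between 56.0 and 151 in AAV-GFP libraries (median 105) and between 15.6 and 72.0 in AAV-SIRT3 libraries (median 30.8). It was low in intact tissue, with 4 to 30 reads per library, and the AAV-SIRT3 group split into libraries close to intact and 3 libraries above every intact one. Its fitted differences were 2.80 ± 0.388 for AAV-GFP against intact, -1.57 for AAV-SIRT3 against AAV-GFP and 1.23 for AAV-SIRT3 against intact (log2, same SE). The AAV-GFP and AAV-SIRT3 groups overlapped only through the replicates 6 of both and AAV-SIRT3 replicate 3: AAV-GFP replicate 6 stood at 56.0, below 59.1 and 72.0 in AAV-SIRT3 replicates 3 and 6.

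Trem2 (chr17:48346401-48354147) and Tyrobp (chr7:30413760-30417585) encode a receptor and its adaptor. Trem2 ran from 456 to 592 normalised reads in intact tissue (median 507), from 556 to 866 after AAV-GFP (median 791) and from 547 to 930.5 after AAV-SIRT3 (median 643). Tyrobp ran from 491 to 685 (median 597), from 664 to 1150 (median 1009) and from 681 to 1112 (median 788). For each gene 1 AAV-GFP library, replicate 6, reached into the intact range. Trem2 rose by 0.56 ± 0.112 and Tyrobp by 0.67 ± 0.12 (log2, SE) from intact to AAV-GFP. The differences between the viruses were -0.18 and -0.21 on the log2 scale, and -0.37 and -0.40 with both replicates 6 left out, and neither gene passed the threshold in either fit. Axl (chr7:25757273-25788705) was nearly level, with means of 3342 ± 140 normalised reads in intact tissue, 3413 ± 128 after AAV-GFP and 3270 ± 104 after AAV-SIRT3 (SD, n = 6 each). Its fitted differences were 0.03, -0.06 and -0.03 on the log2 scale with an SE of 0.037, and none passed the threshold.

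Of the lysosomal members, Cst7 (chr2:150570415-150578944) was close to absent in intact tissue. Its intact values lay between 0 and 13.7 normalised reads (median 2.04), made of 24 reads over all 6 libraries. Replicates 4 and 6 had 0 reads, which allows up to 3 reads, or 3.00 and 3.13 normalised reads, by counting error alone. AAV-GFP libraries held between 33.4 and 101 normalised reads (median 66.6) and AAV-SIRT3 libraries between 9.68 and 50.6 (median 15.98). Each AAV-GFP library was above each intact one, and intact replicate 1, at 13.7, was the single intact library that reached into the AAV-SIRT3 range. The fitted rise from intact to AAV-GFP was 4.52 ± 0.545 (log2, SE). At this depth its size depends on the pseudocount, being 2.57 when 10 replaces 1, and the direction was the same with both. Cd68 (chr11:69664213-69666153) lay between 317 and 419 normalised reads in intact tissue (median 390). It lay between 386 and 796 after AAV-GFP (median 602) and between 304 and 487 after AAV-SIRT3 (median 420). The AAV-SIRT3 values covered the intact range, and 5 of 6 AAV-GFP libraries were above both. Cd68 rose by 0.63 ± 0.136 from intact to AAV-GFP, a call lost without intact replicate 4 or without AAV-GFP replicate 3 or 5, and its difference between AAV-SIRT3 and AAV-GFP was -0.55 (log2, same SE), not past the threshold.

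Of the secreted members, Lgals3 (chr14:47367751-47386160) lay between 21.98 and 43.4 normalised reads in intact libraries (median 33.4). It lay between 67.2 and 185 after AAV-GFP (median 105) and between 45.7 and 119 after AAV-SIRT3 (median 62.7). It was the single member whose AAV-SIRT3 libraries were all above all intact libraries. The AAV-GFP group fell apart into 3 libraries between 67.2 and 75.6 and 3 between 134 and 185, and its lower part overlapped 1 AAV-SIRT3 library, replicate 6 at 119, the next of that group standing at 66.7. Its fitted differences were 1.68 ± 0.261 for AAV-GFP against intact, -0.67 for AAV-SIRT3 against AAV-GFP and 1.00 for AAV-SIRT3 against intact (log2, same SE). Lpl (chr8:68880491-68907448) had means of 371 ± 61.3, 533 ± 77.9 and 400 ± 54.1 normalised reads (SD, n = 6) in the intact, AAV-GFP and AAV-SIRT3 groups. It rose by 0.52 ± 0.114 (log2, SE) from intact to AAV-GFP with overlapping groups, a call lost without AAV-GFP replicate 3 or 5. Spp1 (chr5:104435118-104441050) varied widely within groups, from 3102 to 9417 normalised reads within intact tissue and from 2537 to 8065 within AAV-SIRT3 tissue. Its difference between AAV-GFP and intact, 0.30 ± 0.246 (log2, SE), did not pass the threshold. It was 0.11 without intact replicate 2 and 0.71 with the thalamus genes described below as a covariate, past the threshold in neither. An overlapping annotated transcript on the same strand, Gm42793, had at most 21.98 normalised reads in any library.

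Between the viruses, all 10 members had a lower fitted value after AAV-SIRT3 than after AAV-GFP, with a median difference of -0.50 on the log2 scale against -0.0041 over all tested genes. Of the 10, 1 passed the threshold, Clec7a, where 0.0772% of tested genes passed in the lower direction and 0.113% in either. None of the 10 had groups that did not overlap, against 0.381% of tested genes in that direction. Both facts turn on few libraries. The Clec7a groups overlapped through a single pair, AAV-GFP replicate 6 at 91.3 and AAV-SIRT3 replicate 6 at 97.9. With both replicates 6 left out, a choice made after seeing the values, the Clec7a difference was -2.02, those of Itgax and Cd68 were -1.96 and -0.72, and these 3 passed. The Clec7a call was lost when AAV-GFP replicate 1, 3 or 5 or AAV-SIRT3 replicate 5 was left out alone, and also when the fit held only the groups compared. Without AAV-GFP replicate 2, 4 members passed. Of all 19442 tested genes, 861 passed in that fit and 38 without both replicates 6, against 22 in the main fit. The same AAV-GFP libraries enter this comparison and the one with intact tissue, so a high AAV-GFP library raises the difference of AAV-GFP from intact and lowers that of AAV-SIRT3 from AAV-GFP.

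**Figure D2:**
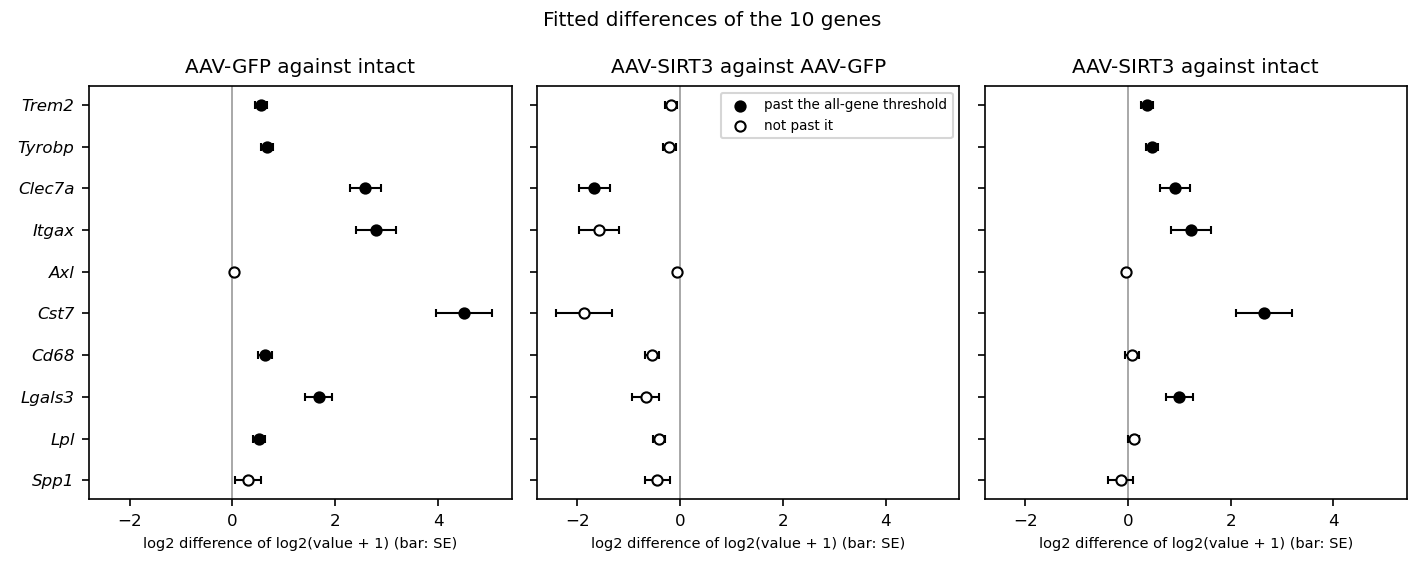
Fitted log2 difference (x axis) of each gene (y axis) in the 3 comparisons, with bars of 1 SE; filled points passed the threshold over all tested genes. Cst7, Itgax and Clec7a lie farthest from 0 in the comparisons with AAV-GFP, and Axl lies at 0 in each.

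Compared with intact tissue, AAV-SIRT3 tissue had 6 members past the threshold, all higher: Itgax, Clec7a, Cst7, Lgals3, Trem2 and Tyrobp. In this comparison 11.3% of tested genes passed in that direction and 21.7% in either, and the group separation seen for Lgals3 held for 5.01%. Cst7 differed by 2.64 ± 0.545, Clec7a by 0.92 ± 0.295, Trem2 by 0.38 ± 0.112 and Tyrobp by 0.47 ± 0.12 (log2, SE). Lpl at 0.11, Cd68 at 0.09, Axl at -0.03 and Spp1 at -0.14 did not pass. Without AAV-SIRT3 replicate 6 the number fell to 3, with Itgax, Clec7a and Trem2 no longer past the threshold. The Itgax call was also lost without intact replicate 4 or 6 or AAV-SIRT3 replicate 3 or 5, and the Clec7a call without intact replicate 2 or 4 or AAV-SIRT3 replicate 2, 3 or 4. The calls of Cst7, Lgals3 and Tyrobp outlasted the removal of any single library.

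The position of the AAV-SIRT3 mean between the other 2 means was not alike across members. Axl and Spp1, whose AAV-SIRT3 means were below their intact means, are left out of the shares below. Of the AAV-GFP increase over intact, the AAV-SIRT3 mean held 12.01% for Cd68, 17.8% for Lpl, 20.7% for Clec7a, 25.6% for Cst7 and 25.9% for Itgax. It held 44.3% for Lgals3, 63.9% for Tyrobp and 64.9% for Trem2. These shares moved with AAV-SIRT3 replicate 6. Without it, a choice made after seeing the values, they were 44.4% for Trem2, 48.5% for Tyrobp, 31.7% for Lgals3, 16.7% for Cst7 and 4.56% for Cd68. The shares of Itgax and Clec7a were 18.2% and 15.7%, while that of Lpl was higher, at 22.2%. Trem2 and Tyrobp, nearer to the AAV-GFP mean with all libraries, were then nearer to the intact mean. With both replicates 6 left out the 8 shares ran from 3.82% for Cd68 to 41.7% for Tyrobp. These are ratios of group means with no error attached, and differences between members in this share were not tested.

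Levels were also taken per kilobase of exon, the union of all exons annotated for a gene in GENCODE M21. This union can be longer than the transcripts expressed, and was 10478 bases for Lpl and 4946 for Trem2. A level per kb is then too low, so the order below depends on the annotation. By this measure Spp1 was highest in intact tissue at 3927 ± 1320 normalised reads per kb (SD, n = 6), then Tyrobp at 894 ± 93.8, Axl at 664 ± 27.8, Cd68 at 301 ± 29.2, Trem2 at 104 ± 9.41, Lpl at 35.4 ± 5.85 and Lgals3 at 17.6 ± 4.14. The ranges of neighbours in that order did not overlap down to Lgals3. Below it, Clec7a at 10.6 ± 1.32, Cst7 at 3.77 ± 5.28 and Itgax at 3.15 ± 1.63 had ranges that overlapped the gene above. In AAV-GFP tissue Cst7 stood at 72.0 ± 25.5 per kb, with overlapping ranges along Clec7a at 68.7 ± 23.6, Lgals3 at 60.9 ± 26.4 and Lpl at 50.9 ± 7.44. The members that were lowest in intact tissue were also the ones with the largest fitted differences between AAV-GFP and intact. Nothing is read from this, as Itgax, Clec7a and Lgals3 were chosen with their increases known. The intact level also enters both the order and the difference.

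Genes that all microglia and macrophages carry also differed between the groups. This list and those below were written with earlier results of these data known, so their counts are a description. Of all tested genes, 0.823% passed as higher from intact to AAV-GFP and 11.3% from intact to AAV-SIRT3. Of 13 identity genes tested, 9 rose from intact to AAV-GFP with a list median of 0.47 on the log2 scale. The number was 5 without intact replicate 4 or AAV-GFP replicate 5 and 6 without AAV-GFP replicate 3, and also 5 with the thalamus covariate. Between AAV-GFP and AAV-SIRT3 none passed in limma, edgeR or DESeq2, and 0 had an unadjusted limma p under 0.05 (median -0.06). Further, from intact to AAV-SIRT3 10 rose (median 0.45). C1qa, a chain of complement C1q, rose from 2531 ± 136 to 3917 ± 662 normalised reads (SD, n = 6) from intact to AAV-GFP, with all 6 libraries above every intact one (log2 difference 0.61 ± 0.101, limma adjusted p = 0.00436). It was 3668 ± 631 after AAV-SIRT3 (0.52 against intact, limma adjusted p = 0.00169). Fcgr3, a low-affinity IgG receptor, stood at 568 ± 64.0 normalised reads in intact tissue, 825 ± 132 after AAV-GFP and 822 ± 130 after AAV-SIRT3, and differed from intact by 0.53 (limma adjusted p = 0.0168) and 0.52 (limma adjusted p = 0.00219), with 6 of 6 libraries above every intact one in both groups.

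Set against the mean log2 level of these 13 genes in the same library, the members fell into different ranges. After AAV-GFP, Cst7 was 4.08, Itgax 2.37, Clec7a 2.15 and Lgals3 1.24 log2 units above its intact mean by that measure. Tyrobp at 0.24, Cd68 at 0.20, Trem2 at 0.13 and Lpl at 0.09 stood closer to the identity genes, whose own mean was higher than in intact tissue by 0.43 ± 0.16 (SD, n = 6). After AAV-SIRT3, the identity mean was 0.35 ± 0.14 above intact. Relative to it Cst7 was at 2.29, Itgax at 0.88, Lgals3 at 0.65, Clec7a at 0.57, Tyrobp at 0.12, Trem2 at 0.03, Lpl at -0.24 and Cd68 at -0.26. Axl and Spp1 lay below their intact means by this measure in both, at -0.40 and -0.13 after AAV-GFP and at -0.38 and -0.49 after AAV-SIRT3. A gene whose own level stays the same falls below 0 by this measure, because the identity mean rose. Whether the identity mean follows the number of microglia was not tested, so no member's value here is a level per microglial cell. Homeostatic genes of microglia, described below, had a list median of 0.103 on the log2 scale from intact to AAV-GFP. The members were not set against that list, so the ranges above hold for the identity genes alone. Axl, Spp1 and Lpl are also expressed by neurons or other glia.

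**Figure D3:**
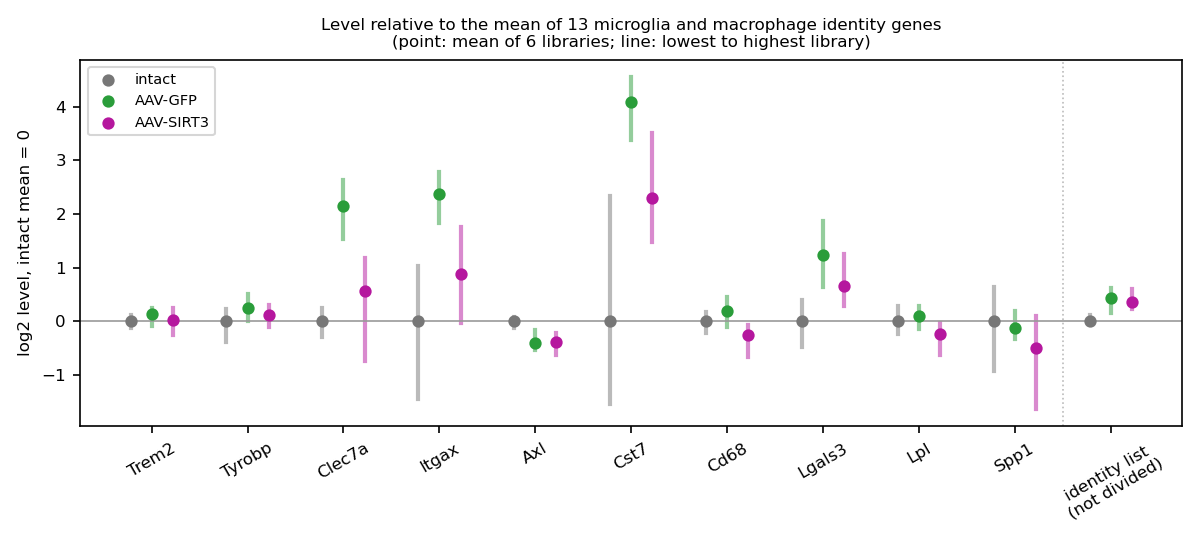
Log2 level of each gene relative to the mean of 13 microglia and macrophage identity genes in the same library, with the intact mean at 0 (y axis); points are means of 6 libraries, lines run from the lowest to the highest library, and the last column is the identity mean itself. Cst7, Itgax, Clec7a and Lgals3 stay above 0 after AAV-GFP in every library, while Trem2, Tyrobp, Cd68 and Lpl lie near 0.

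A further list of disease-associated microglia genes was also written with earlier results known. From intact to AAV-GFP, 0.823% of all tested genes passed as higher. Of the 24 tested genes of this list, 11 rose in that comparison and none fell. The number past the threshold was 5 without intact replicate 4 or AAV-GFP replicate 5, 6 without intact replicate 3, or 7 when AAV-GFP replicate 2 or 3 was left out, and 3 with the thalamus covariate. The list median was 0.25 on the log2 scale. Gpnmb, a transmembrane glycoprotein of phagocytic and lipid-loaded macrophages, stood at 114 ± 24.2 normalised reads in intact tissue, 489 ± 225 after AAV-GFP and 108 ± 35.0 after AAV-SIRT3 (SD, n = 6). It rose by 1.97 ± 0.267 after AAV-GFP (limma adjusted p = 0.00117) and fell by 2.08 on the log2 scale from AAV-GFP to AAV-SIRT3 (limma adjusted p = 0.00198), in both cases with all 6 AAV-GFP libraries above all of the other group. Apoe, the main lipid carrier of the brain, which astrocytes also make, rose by 0.34 ± 0.0555 from 76036 ± 4740 to 96120 ± 6390 normalised reads, with 6 of 6 libraries above intact (limma adjusted p = 0.00436). The tetraspanins Cd9 and Cd63 rose by 0.29 (limma adjusted p = 0.00431) and 0.25 (limma adjusted p = 0.0164), each with 6 of 6 libraries above intact, the Cd9 call being lost with the thalamus covariate. Lyz2, lysozyme, rose by 0.92 ± 0.207 (limma adjusted p = 0.0263, 5 of 6 libraries above the intact mean), a call lost without intact replicate 3 or 4 or AAV-GFP replicate 2, 3 or 5, and with that covariate.

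Between the viruses Gpnmb was the single gene of the 24 past the threshold (3 passed without AAV-GFP replicate 2 or 6 and 2 without AAV-SIRT3 replicate 4), and the list median was -0.07 on the log2 scale. Ch25h, cholesterol 25-hydroxylase, had a mean of 37.3 ± 21.7 normalised reads after AAV-GFP and 9.15 ± 6.12 after AAV-SIRT3, a difference of -1.94 ± 0.431 (log2, SE) that did not pass (limma adjusted p = 0.0708). From intact to AAV-SIRT3, where 11.3% of all tested genes passed as higher, 10 of the 24 rose and 1 fell. The number of the 24 past the threshold was 6 without intact replicate 3 or AAV-SIRT3 replicate 6. It was 7 without intact replicate 2 or 4 or with the thalamus covariate, and 6 with quantile normalisation or with all genes above 0 tested. The chemokine Ccl3 rose by 1.21 ± 0.312 (limma adjusted p = 0.00916) and the serpin Serpine2 by 0.21 ± 0.0343 (limma adjusted p = 0.000695), each with 6 of 6 libraries above the intact mean. With the thalamus covariate Ccl3 was at 0.80 and no longer passed. Both genes also rose from intact to AAV-GFP, Ccl3 by 1.46 (limma adjusted p = 0.0206) and Serpine2 by 0.16 (limma adjusted p = 0.0239). These calls held in 15 and 16 of 18 fits with a single library left out. Ccl3 was low, with means of 11.9, 33.0 and 26.5 normalised reads in the intact, AAV-GFP and AAV-SIRT3 groups. The gene that fell from intact to AAV-SIRT3 was Cadm1, a cell adhesion molecule also expressed by neurons, by 0.18 on the log2 scale (limma adjusted p = 0.0276, 6 of 6 libraries below the intact mean). Its call was lost without intact replicate 3 or 5 or AAV-SIRT3 replicate 2 or 6, and with the thalamus covariate.

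Disease-associated microglia are known to lower homeostatic genes. Of 12 such genes tested, none fell from intact to AAV-GFP and 1 rose, with a list median of 0.10 on the log2 scale. Of the 12, 0 had an unadjusted limma p under 0.05 in the lower direction and 3 in the higher, edgeR called 1 and DESeq2 3. Without AAV-GFP replicate 6 limma called 3, and without intact replicate 3 or AAV-SIRT3 replicate 6 it called 2. The gene that rose was Fcrls, an Fc receptor-like scavenger receptor, which rose by 0.36 ± 0.0735 from 783 ± 43.7 to 1009 ± 117 normalised reads (limma adjusted p = 0.0171, 6 of 6 libraries above the intact mean), a call lost with the thalamus covariate. From intact to AAV-SIRT3, Tmem119 rose by 0.38 ± 0.0745 (limma adjusted p = 0.00181, 6 of 6 above the intact mean) and Selplg by 0.16 ± 0.0573 (limma adjusted p = 0.049, 5 of 6), the latter call held in 5 of 18 fits with a single library left out.

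**Figure D4:**
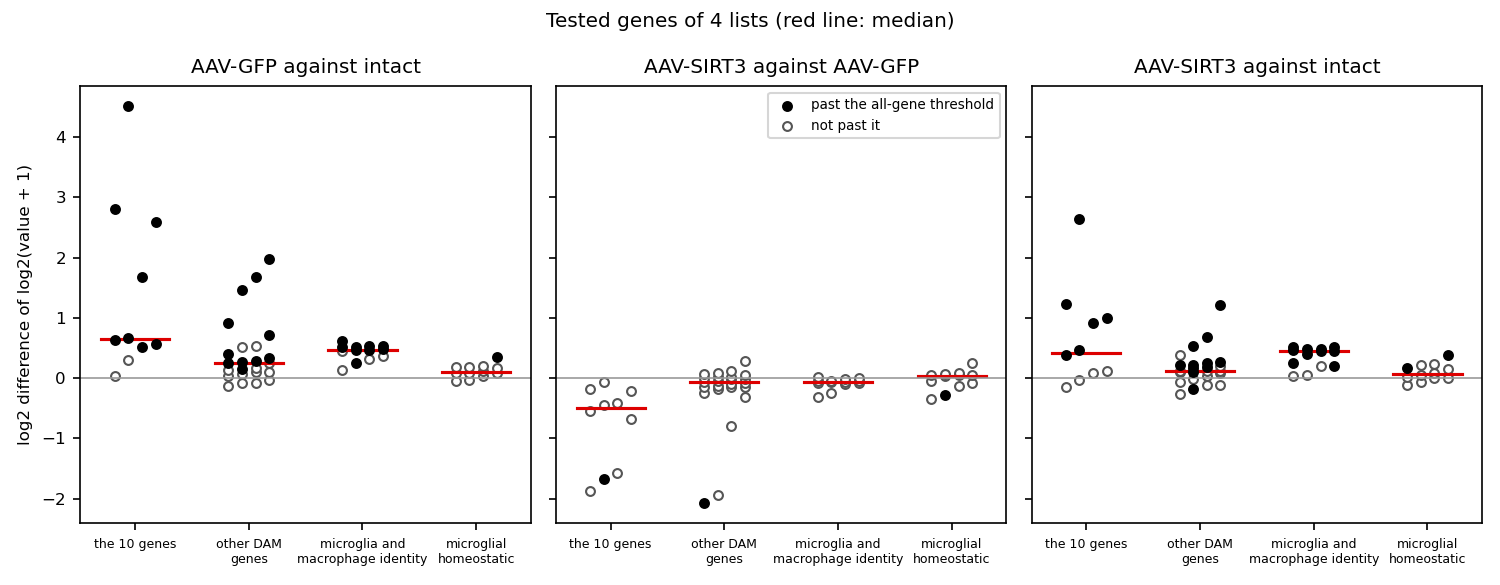
Fitted log2 differences (y axis) of the tested genes of 4 lists (x axis) in the 3 comparisons; filled points passed the threshold over all tested genes and red lines are list medians. The 10 genes spread up to 4.52 after AAV-GFP, the identity genes sit together near their median of 0.47, and the homeostatic genes lie near 0.

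Of 11 tested genes of the signalling chain below TREM2 and dectin-1 (kinases, adaptors and guanine exchange factors), 2 rose from intact to AAV-GFP, Ptpn6 by 0.59 ± 0.146 (limma adjusted p = 0.0387) and Vav1 by 0.38 ± 0.0947 (limma adjusted p = 0.0414), each with 6 of 6 libraries above the intact mean. Without intact replicate 3, 4 or 5, or AAV-GFP replicate 3 or 5, none of the 11 passed, and Vav1 was also lost with the thalamus covariate. PTPN6 is the phosphatase SHP-1, which restrains such signalling, and VAV1 a guanine exchange factor. Between the viruses none of the 11 passed in limma, edgeR or DESeq2, and 3 had an unadjusted limma p under 0.05, all lower after AAV-SIRT3. From intact to AAV-SIRT3, Malt1 fell by 0.32 on the log2 scale (limma adjusted p = 0.00929, 6 of 6 libraries below all intact ones) and Vav3 rose by 0.39 ± 0.134 (limma adjusted p = 0.0417, 6 of 6 above the intact mean), a call that 10 of 18 fits without a single library kept. With the thalamus covariate Vav3 turned to -0.048, Malt1 was at -0.34, and none of the 11 passed. edgeR and DESeq2 did not call Vav3. In limma the number was 1 without intact replicate 1, 3, 4 or 5 or AAV-SIRT3 replicate 1, 2 or 5.

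Markers of other cells that could carry some of the 10 genes were read in the same libraries, and their part in the differences was not tested. Of 8 border macrophage genes none passed in any comparison, by limma, edgeR or DESeq2 (1 had an unadjusted limma p under 0.05, between the viruses). Their summed level ran from 622 to 1196 normalised reads in intact tissue, from 600.1 to 1320 after AAV-GFP and from 607 to 1081 after AAV-SIRT3. Of 8 monocyte and neutrophil genes 4 were testable and none passed by any of these tools (0 at an unadjusted limma p under 0.05), their sums running from 56.2 to 134, from 36.3 to 243 and from 73.4 to 335 in the same order, with Chil3 under 10 in every library. None of the 4 testable dendritic cell genes passed in limma or edgeR (1 at an unadjusted limma p under 0.05 in each comparison, and 1 by DESeq2 for AAV-SIRT3 against intact), and Xcr1 and Ccr7 stayed under 10 throughout. None of the 3 testable T cell genes passed by these tools (0 at an unadjusted limma p under 0.05). Their median fitted difference from intact tissue was still 1.04 on the log2 scale after AAV-GFP and 0.86 after AAV-SIRT3. Between the viruses it was -0.18. Cd3d stayed under 10 throughout. Cd3g, Cd2 and Cd8a did so in every intact and AAV-GFP library but not in every AAV-SIRT3 library. The summed T cell genes ran from 181 to 231 normalised reads in intact tissue, from 220.0 to 360.5 after AAV-GFP and from 203 to 332 after AAV-SIRT3.

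Markers of astrocytes, of the interferon response and of neighbouring tissue were read too. Of 8 astrocyte genes, 2 rose from intact to AAV-GFP (Serpina3n and Gfap), 1 fell from AAV-GFP to AAV-SIRT3 and 1 rose from intact to AAV-SIRT3 (Aldoc). The calls of Gfap and Aldoc held in 10 and 9 of 18 fits with a single library left out. Between the viruses the number was 3 in DESeq2 or without AAV-GFP replicate 2, and 2 without AAV-GFP replicate 6. Serpina3n, a reactive astrocyte marker, rose by 0.89 ± 0.139 after AAV-GFP (limma adjusted p = 0.00297) and fell by 0.88 on the log2 scale from AAV-GFP to AAV-SIRT3 (limma adjusted p = 0.00991), with 6 of 6 libraries on that side of the other group's mean in both. All 9 interferon response genes rose from intact to AAV-SIRT3 (list median 1.12 on the log2 scale), against none from intact to AAV-GFP (0 in limma, edgeR and DESeq2, and 0 at an unadjusted limma p under 0.05). In limma 2 were higher after AAV-SIRT3 than after AAV-GFP, against 3 in edgeR and 9 in DESeq2. That number was 8 without AAV-GFP replicate 2, and 0 without any 1 of 13 other libraries: intact replicates 2 to 6, AAV-GFP replicates 1, 3, 4, 5 and 6, and AAV-SIRT3 replicates 3, 4 and 5. The summed interferon genes ran from 1902 to 2530 normalised reads in intact tissue, 1888 to 2750 after AAV-GFP and 3102 to 9510 after AAV-SIRT3. Genes of the thalamus, which lies close to the dissected region, summed to 58580 to 103500 normalised reads in intact tissue, 88840 to 98590 after AAV-GFP and 82290 to 107000 after AAV-SIRT3. With that list as a covariate, 5 members passed for AAV-GFP against intact, with Lpl, Cd68 and Tyrobp no longer past the threshold and fitted differences of 0.60, 0.76 and 0.66. For AAV-SIRT3 against intact, Clec7a and Tyrobp no longer passed with it, at 1.08 and 0.45. Genes of the anterior pituitary were higher in intact libraries, summing to between 724 and 5414 against 240 to 690 after AAV-GFP and 229 to 788 after AAV-SIRT3.

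Within the groups most pairs of members correlated positively. After the group means were taken out, the 45 pairs of members had Pearson correlations over the 18 libraries between -0.21 and 0.70, with a median of 0.34, and 41 were positive. The highest were Cd68 with Itgax at 0.70, Cst7 with Itgax at 0.69, Trem2 with Cd68 at 0.64 and Tyrobp with Trem2 at 0.62. Pairs with Axl or Spp1 had a median of 0.22. The points share libraries, depth and size factors, pairs of other genes were not set beside them, and these values are a description. The libraries farthest from their group mean, averaged over the 10 genes, were AAV-GFP replicate 6 at -0.54 and AAV-SIRT3 replicate 6 at 0.60. The mean centred log2 level of the 10 genes was lowest in intact tissue, from -0.95 to -0.38, and lay between -0.36 and 0.56 after AAV-SIRT3 and between 0.19 and 1.06 after AAV-GFP. Genes were not scaled for this mean, so those with a wide log2 spread weigh most in it and in the likeness to it below. Cst7, with 0 to 15 reads in intact libraries, is such a gene. Intact replicate 1 and AAV-SIRT3 replicate 1, at -0.38 and -0.36, stood next to each other, and AAV-SIRT3 replicate 6 stood within the AAV-GFP range.

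Among all tested genes outside the 10, the 8 whose pattern over the 18 libraries was most like that mean were Mpeg1 (r = 0.956), C4b (0.938), Apoe (0.907), Csf3r (0.904), Cd63 (0.902), Cd9 (0.893), Slc11a1 (0.891) and Chil1 (0.889). Mpeg1, perforin-2 of macrophages, had means of 1537, 2345 and 1871 normalised reads in the intact, AAV-GFP and AAV-SIRT3 groups, and C4b, a complement component, 2682, 4997 and 3607. With the group means taken out, the list was C4b (0.874), Slc11a1 (0.85), B2m (0.838), Ctss (0.836), Ifit1 (0.829), Slco2b1 (0.819), Henmt1 (0.814) and Lgals9 (0.806). Only C4b and Slc11a1, a metal transporter of phagosomes, were in both lists of 8. The second list held B2m and Ifit1, genes that interferon is known to raise. Their group means differed otherwise than those of the 10 genes, being highest after AAV-SIRT3. In the intact, AAV-GFP and AAV-SIRT3 groups they were 5255, 6237 and 7856 for B2m and 216, 236 and 503 for Ifit1. AAV-SIRT3 replicate 6 was high both for the 10 genes and for the summed interferon genes, and its weight in these correlations was not tested.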

How the data were processed

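Poly-A RNA of the substantia nigra was read on 18 libraries of 3 groups with 100-base paired reads, per the labels' protocols. The deposited signal values are gene counts that the authors divided by a size factor per library; alignment with HISAT2 2.1.0 and DESeq2 1.34.0 on mm10 are named in the submitters' processing notes. The annotation and the strand setting of the counting are not given in the sources used here. Whole reads were recovered from the steps of the values: 100.0% of values fell within 1e-06 of a whole read. A row that names no gene (0.000163 to 0.000289% of reads) was left out.

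The main test was limma 3.58.1 (R 4.3.3) on log2(value + 1) with an intensity trend, all 3 groups in one fit leaving 15 residual degrees of freedom, with p-values adjusted by Benjamini-Hochberg over the 19442 genes with at least 10 normalised reads in at least 6 libraries. Among 30 alternatives were count tests of the recovered reads, by DESeq2 1.42.0 and by edgeR 4.0.16. The scripts were tested on simulated data. Any 2 libraries of a group differed by more than counting noise (chi-square per degree of freedom 8.27 to 36.6). Positions are from GENCODE M21. Replicate numbers did not pair the samples. The members and all gene lists were chosen with earlier results of these data known. All 10 members are named; from other lists, up to 4 genes past the threshold per comparison with the largest difference and a mean of at least 50, any further disease-associated or homeostatic gene, and the 8 genes most like the members.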

Additional observations from a re-analysis of the deposited data

Results flagged for a closer look

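Of 30 sets of 6 libraries tested, a member in a group, 4 had a library farther from the rest than Dixon's 95% criterion allows, where chance gives about 1 in 20. Cst7 stood at 13.7 normalised reads in intact replicate 1, with the next library at 4.53. AAV-SIRT3 replicate 6 was the high library in the other 3: Cst7 at 50.6 against 22.8 in the next library, Lgals3 at 119 against 66.7, and Trem2 at 930.5 against 685.2. The same library had the highest summed interferon response genes, 9510 normalised reads; whether that is tied to these values was not tested.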

How the results depend on the processing

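Of the members called in each comparison, 8, 1 and 6 in AAV-GFP against intact, AAV-SIRT3 against AAV-GFP and AAV-SIRT3 against intact, no call changed direction in 30 other settings. In AAV-GFP against intact, 358 genes passed; 164 passed with all genes above 0 tested, 1000 by DESeq2, 199 with only the groups compared, 32 (with 5 members) with the thalamus list as covariate, and 129 to 686 leaving out single libraries. In AAV-SIRT3 against AAV-GFP, 22 genes passed; 304 genes and 5 members passed by DESeq2, 8 and 0 with only the groups compared, 38 and 3 without both replicates 6 of the AAV groups, and 5 to 861 genes and 0 to 4 members leaving out single libraries. A pseudocount of 10 gave 2 members. With the replicate number as a block, 13 genes and 0 members passed; the numbers gave no sign of pairing, with same-numbered libraries correlating between -0.095 and 0.175 and 1 of 18 matching its own number best. In AAV-SIRT3 against intact, 4214 genes passed, 1721 with the thalamus covariate, and 3 to 6 members leaving out single libraries. That covariate turned Vav3 to -0.048 and Prkcd to -0.12, and moved Spp1 and Axl, neither called, from -0.14 and -0.03 to 0.27 and 0.0035. The causes were not tested. Cst7, at 0 to 15 reads in intact libraries, is limited by depth; it was not tested where a mean of 50 was required, and DESeq2 gave it no adjusted p for AAV-GFP against intact. Of unadjusted p under 0.05 there were 3707, 2964 and 6788.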

Other observations

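Genes of other cell types were read only as a background to the 10 members. Slc6a3, the dopamine transporter, fell by 0.44 on the log2 scale from intact (11062 ± 1460 normalised reads, SD, n = 6) to AAV-GFP (8168 ± 1090), with all 6 libraries below all intact ones (limma adjusted p = 0.0263), a call lost without intact replicate 3 or 5 or AAV-GFP replicate 5, and at -0.30 with the thalamus covariate. In limma it was the single one of 8 dopaminergic genes past the threshold in any comparison, while 6 were lower after AAV-GFP at an unadjusted p under 0.05, 4 passed without intact replicate 2, and DESeq2 called 2 for AAV-GFP against intact and 2 between the viruses. Of 6 endothelial genes, 4 fell from intact to AAV-SIRT3, among them Kdr, a VEGF receptor, by 0.57 on the log2 scale from 681 ± 77.9 to 459 ± 75.0 (limma adjusted p = 0.000936, 6 of 6 libraries below all intact ones). The number was 1 without intact replicate 4 or AAV-SIRT3 replicate 5 or 6, and 2 without intact replicate 2 or 6 or AAV-SIRT3 replicate 4, with the thalamus covariate, or with all genes above 0 tested. None of the 6 passed in limma from intact to AAV-GFP (0 at an unadjusted p under 0.05, 0 in edgeR and DESeq2) or between the viruses (5 at an unadjusted p under 0.05, 0 in edgeR, 1 in DESeq2).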
